A study of Mus musculus with 32 samples.

Results

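The genes described here are 40 targets of the hypoxia-inducible factors (HIFs) and enzymes of glycolysis, taken by their symbols from the 55103 rows of the deposited count table. All 40 were in the table, and all 40 passed the filter on low counts that 20474 genes passed. RNA was sequenced from 32 mouse tumours of KPC36, a malignant line used as a model of pancreatic cancer. The groups, of 8 libraries each, were tumours treated with carbon ions (a particle beam), untreated controls of the carbon-ion arm, tumours treated with photons (the usual form of radiotherapy) and untreated controls of the photon arm. All 4 groups share the KPC36 line, and the labels used here give no dose, host strain, age or sex. Tumours were collected 4 or 7 days after treatment, but the labels do not give the day of a library, so days were not separated. Nothing in the labels says whether 2 libraries came from the same animal, and p-values measure only the spread between these libraries. Library totals ranged from 13891863 to 71645903 estimated counts, and expression is given as CPM, the count of a gene relative to the scaled library total. Markers of epithelial cells (Epcam, keratins and others, 8 genes) summed to between 2569 and 5732 CPM in every library, and markers of pancreatic acinar cells summed to at most 21.2 CPM.

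HIFs are pairs of an oxygen-regulated alpha subunit, such as the product of Hif1a, and a stable partner, Arnt. With oxygen present, the prolyl hydroxylases encoded by Egln1 and Egln3 mark the alpha subunit for destruction, so that HIF activity is set largely on the protein and Hif1a mRNA need not follow it. When oxygen is short, the factor binds DNA at a short core sequence and raises the mRNAs for glucose transporters, glycolytic enzymes, acid export, vessel growth and mitochondrial turnover. Pancreatic tumours are known for dense stroma and poor blood supply.

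The 5 promoter windows (RefSeq, GRCm38.p6) are printed because, among the 35 members with a promoter entry, they had the highest average log2 fold change after both beams, 4 with the HIF-binding core and 1 without it. Ndrg1, whose average lay above that of Egln3, had no entry. Each window spans 250 bases before the gene start and 50 bases from it. Capitals mark every match of ACGTG or GCGTG on either strand, and a match on the opposite strand reads CACGT or CACGC. The Bnip3 window lies on the minus strand at chr7:138909457-138909756, Adm on the plus strand at chr7:110627407-110627706, Car9 on the plus strand at chr4:43506776-43507075, Egln3 on the minus strand at chr12:54203825-54204124 and Vldlr on the plus strand at chr19:27216234-27216533.
Bnip3: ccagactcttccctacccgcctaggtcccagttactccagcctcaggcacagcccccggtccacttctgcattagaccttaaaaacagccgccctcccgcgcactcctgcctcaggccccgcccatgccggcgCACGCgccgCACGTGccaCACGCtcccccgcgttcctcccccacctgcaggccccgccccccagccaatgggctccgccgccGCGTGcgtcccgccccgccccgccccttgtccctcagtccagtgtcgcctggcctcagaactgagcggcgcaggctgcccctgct
Adm: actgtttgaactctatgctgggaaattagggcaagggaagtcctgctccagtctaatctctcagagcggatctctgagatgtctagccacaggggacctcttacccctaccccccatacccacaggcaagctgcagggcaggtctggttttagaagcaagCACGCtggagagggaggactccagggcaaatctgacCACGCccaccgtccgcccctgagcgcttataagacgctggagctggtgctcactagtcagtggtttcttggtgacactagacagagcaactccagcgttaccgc
Car9: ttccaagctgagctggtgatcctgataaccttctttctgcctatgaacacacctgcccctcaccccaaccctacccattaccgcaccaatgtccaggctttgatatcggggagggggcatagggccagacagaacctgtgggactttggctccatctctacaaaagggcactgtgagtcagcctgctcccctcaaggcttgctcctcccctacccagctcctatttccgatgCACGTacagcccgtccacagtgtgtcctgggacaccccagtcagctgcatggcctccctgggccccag
Egln3: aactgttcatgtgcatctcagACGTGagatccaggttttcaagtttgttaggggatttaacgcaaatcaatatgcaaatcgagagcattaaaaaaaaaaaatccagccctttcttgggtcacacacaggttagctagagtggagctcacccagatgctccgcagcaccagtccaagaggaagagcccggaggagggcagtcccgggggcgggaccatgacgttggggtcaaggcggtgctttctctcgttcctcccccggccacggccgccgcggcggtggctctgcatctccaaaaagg
Vldlr: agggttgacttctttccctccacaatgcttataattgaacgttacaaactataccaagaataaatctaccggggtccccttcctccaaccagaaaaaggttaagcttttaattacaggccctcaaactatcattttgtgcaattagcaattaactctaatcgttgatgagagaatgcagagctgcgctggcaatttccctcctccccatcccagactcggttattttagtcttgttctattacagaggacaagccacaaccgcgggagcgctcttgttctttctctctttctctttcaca

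Bnip3 held 5 matches, of which 2 share the letters CACGTG, which read as ACGTG on both strands. Adm held 2 matches, Car9 had 1 at base -18 and Egln3 had 1 at base -229, counted from the gene start. Vldlr held none, which says only that these letters are not in this window. A promoter entry existed for 35 of the 40 members, and 28 of the 35 (80.0%) held at least 1 match, compared with 43.8% of all 27025 promoters. ACGTG alone was in 19 of the 35 (54.3%), compared with 19.7% of all promoters. The members' promoters were richer in G and C, with a median of 64.7% against 52.7%. Among promoters with at least 60% G and C, 21 of 22 members (95.5%) and 69.7% of all promoters held a match. Ldha held the most matches of the members, 7, followed by Fam162a with 6, and the other members without a match were Hk1, Gpi1, Aldoa, Tpi1, Vegfa and Mxi1. A match is a description of the sequence and was not tested as a binding site.

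In these genes 5 libraries stood apart from the rest. In each library the deviation of every member from its median over the 32 libraries was taken on the log2 CPM scale, and the median over the 40 members was 1.04 in carbon-irradiated replicate 4, 0.81 in carbon-irradiated replicate 5, 0.78 in photon-irradiated replicate 5, 0.73 in photon-irradiated replicate 6 and -0.53 in carbon-arm control replicate 4. The other 27 libraries lay between -0.38 and 0.37. Carbon-ion irradiated replicate 4 held the highest value of its group in 33 of 40 members, and carbon-arm control replicate 4 the lowest of its group in 33. The totals of these 5 libraries, from 20209708 to 33741258, lay within the range of the rest. The median deviation over all genes tested lay between -0.03 and 0.02 in them, but the scaling of libraries keeps that value near 0 in any library. The medians of the 8 libraries of a group were close together, at -0.01 and 0.10 in the control and irradiated groups of the carbon-ion arm and -0.10 and -0.06 in those of the photon arm. Title numbers of controls and irradiated libraries do not overlap in the photon arm, so whatever these numbers order cannot be told apart from the photon treatment. The members' values after each beam are therefore given with and without these 5 libraries, singly or by role, an alternative chosen after the data were seen.

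**Figure D1:**
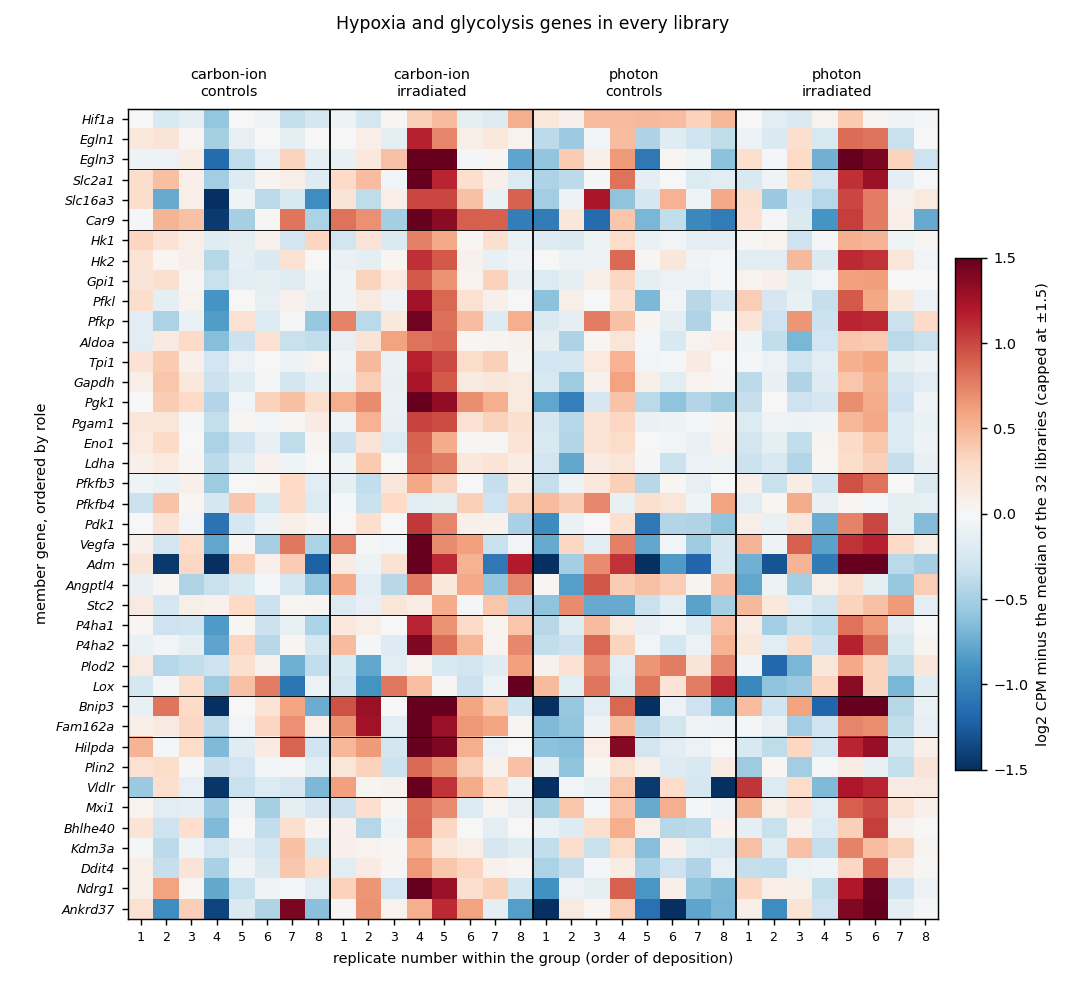
The level of each of the 40 members (rows, ordered by role) in each of the 32 libraries (columns, by group and replicate), as log2 CPM minus the gene's median over all libraries, with colours capped at 1.5 in either direction. Replicates 4 and 5 of the carbon-irradiated group and replicates 5 and 6 of the photon-irradiated group are red in nearly every row, and carbon-arm control replicate 4 is blue.

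After carbon ions, 39 of the 40 members had a positive log2 fold change against the arm's own controls, with a median of 0.42, compared with 0.01 over all 20474 genes. No member passed the threshold of an adjusted p of 0.05 (edgeR quasi-likelihood test, Benjamini-Hochberg), and none of the genes tested did (0% called). An unadjusted p under 0.05 was reached by 24 members, all higher, and by 3.68% of all genes in that direction. This count was 13 without carbon-irradiated replicate 4, 6 without that library and carbon-arm control replicate 4, and 2 without the 5 libraries. DESeq2 likewise called 0 of the 40 members, and 0.083% of all genes. After photons, 30 of 40 members had a positive value, with a median of 0.25 against -0.00 over all genes. Again 0 of 40 passed by edgeR, where 3.81% of all genes were called. At an unadjusted p under 0.05 were 11 members higher (8.87% of all genes) and 4 lower (12.7% of all genes). The count of 11 was 5 without photon-arm control replicate 1, 5 or 8, 7 without control replicate 7 and 18 without control replicate 4. It was 4 and 3 without photon-irradiated replicates 5 and 6 respectively, 1 without the 5 libraries, and 2 with the score of 12 skeletal muscle markers as a term. The count of 4 lower ran from 2 to 5 with each library left out and was 6 without the 5. DESeq2 called 2 members after photons, Hif1a lower and Stc2 higher, a share of members below the 7.41% of all genes that it called. With the average of both effects, in which each beam counts equally, 36 of 40 members were positive, the median was 0.33 and 1 member, Vldlr, passed, where 0.772% of all genes were called (0.44% higher).

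Without the 5 libraries, the median of the members was 0.12 after carbon ions, with 33 of 40 positive, and -0.07 after photons, with 17 of 40 positive. Without carbon-irradiated replicate 4 and carbon-arm control replicate 4 alone, it was 0.25 after carbon ions. With each library left out in turn, it ran from 0.30 to 0.48 after carbon ions and from 0.13 to 0.39 after photons. The 5 libraries were picked by the members' own levels, 4 high ones that are irradiated and 1 low control, so leaving them out lowers the median of the members' effects by construction.

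**Figure D2:**
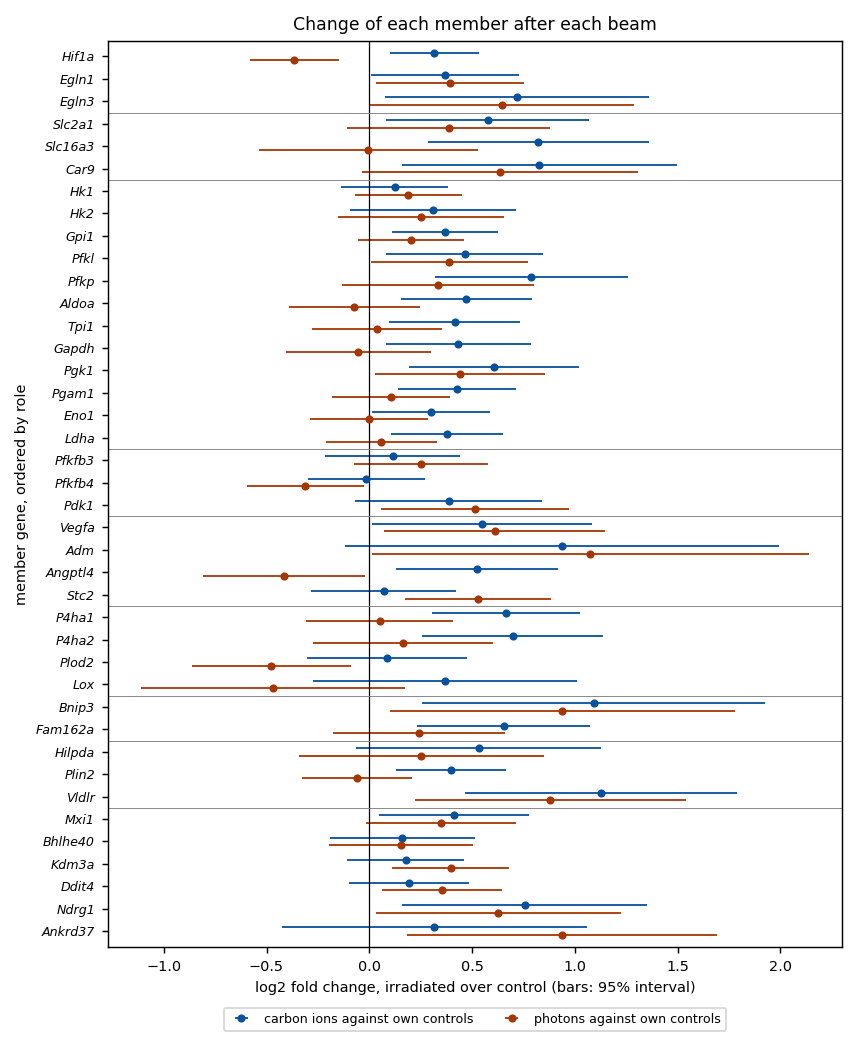
The log2 fold change of each member (rows, ordered by role) after carbon ions (blue) and after photons (orange-red), each against the arm's own controls, with bars for the 95% interval. Blue points lie right of 0 for every member but Pfkfb4 (-0.01), while the orange-red points of Pfkfb4 (-0.31), Hif1a (-0.36), Angptl4 (-0.42), Plod2 (-0.48) and Lox (-0.47) lie well to the left.

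Hif1a (chr12:73901375-73947530, plus strand, mm10), the alpha subunit itself, was the member whose groups differed most clearly. It measured 154, 202 and 231 CPM (lowest, median and highest library) in the carbon-arm controls and 193, 227 and 337 CPM in the carbon-irradiated tumours. In the photon arm the values were 243, 319 and 325 CPM in the controls and 199, 229 and 302 CPM in the irradiated tumours. The controls of the photon arm were therefore above every control of the carbon-ion arm, with no overlap. Hif1a was lower in the carbon-arm controls by a log2 difference of -0.57 ± 0.11 (SE; adjusted p = 0.00181), a comparison in which 9.14% of all genes were called (4.01% lower) and 0.43% did not overlap in this direction. That call held in all 32 fits that left out a library, with adjusted p up to 0.00664. Fits without an irradiated library bear on this comparison only through the shared spread and scaling. Against its own controls Hif1a had a log2 fold change of 0.32 ± 0.11 after carbon ions (adjusted p = 0.558) and of -0.36 ± 0.11 after photons (adjusted p = 0.0553), and all 8 photon-irradiated libraries were below the control median. Without the 5 libraries the photon value was -0.45 and passed (adjusted p = 0.0245), where 528 of 20846 genes were called, and the carbon-ion value was 0.15. Photon-irradiated replicate 5, left out there, was the highest of its group in Hif1a. The photon value is thus lowered by construction, and its pass adds nothing to the fit on all libraries. The difference between the effects was 0.68 ± 0.16 (adjusted p = 0.0653). Since the irradiated groups differed by 0.11 ± 0.11, most of this difference lay between the controls. The annotation has a pair of further genes over Hif1a, Gm15283 and Gm49321, of which 1 is on its strand and 1 is given as protein-coding.

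The oxygen sensors Egln1 and Egln3, which are also HIF targets, had positive values after both beams. Egln3 measured 17.6, 36.4 and 49.3 CPM in the carbon-arm controls and 22.6, 41.7 and 125 CPM after carbon ions. It measured 18.6, 38.7 and 61.0 CPM in the photon-arm controls and 23.8, 47.1 and 129 CPM after photons. The groups overlapped in both arms, and the highest values differed far more than the medians. Its log2 fold change was 0.72 ± 0.33 after carbon ions and 0.64 ± 0.33 after photons, and without the 5 libraries it was 0.03 and 0.07. Egln1, at 0.37 ± 0.18 after carbon ions and 0.39 ± 0.18 after photons, exceeded the control median in 7 of 8 carbon-ion and 8 of 8 photon-irradiated libraries without passing the test. The values of Egln1 were 0.02 and 0.10 without the 5 libraries.

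Among the genes of glucose uptake and acid export, Slc2a1 encodes the glucose transporter GLUT1, Slc16a3 the lactate exporter MCT4 and Car9 a carbonic anhydrase at the cell surface. Slc2a1 measured 73.8, 111 and 145 CPM in the carbon-arm controls and 91.99, 128 and 346 CPM in the irradiated tumours. In the photon arm it measured 77.1, 95.9 and 187 CPM in the controls and 87.1, 104 and 260 CPM after irradiation. The medians of irradiated and control groups lay within the spread of either group. Its log2 fold change was 0.58 ± 0.25 after carbon ions (adjusted p = 0.775) and 0.39 ± 0.25 after photons (adjusted p = 0.388), and 0.06 and -0.05 without the 5 libraries. Car9 measured 16.1, 43.6 and 76.3 CPM in the carbon-arm controls and 21.3, 78.9 and 171 CPM after carbon ions. Its values were 19.5, 24.7 and 58.4 CPM in the photon-arm controls and 23.6, 44.7 and 89.7 CPM after photons. The irradiated median was thus above the highest control for carbon ions and below it for photons, yet 2 carbon-irradiated libraries were at 21.3 and 30.6 CPM. The log2 fold changes of Car9 were 0.83 ± 0.34 (adjusted p = 0.733) and 0.63 ± 0.34 (adjusted p = 0.282), and without the 5 libraries 0.29 and 0.26. Slc16a3 was at 0.82 ± 0.27 after carbon ions and near 0 after photons (-0.01 ± 0.27), and the difference of 0.83 ± 0.38 did not pass (adjusted p = 0.355). Slc16a3 was at 0.48 and -0.32 without the 5 libraries.

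All 12 glycolytic enzymes had positive values after carbon ions, from 0.12 for Hk1 to 0.79 for Pfkp, with a median of 0.42 and 0 of 12 past the threshold. After photons 9 of 12 were positive, from -0.07 for Aldoa to 0.44 for Pgk1, with a median of 0.15 and again 0 past it. Without the 5 libraries 10 of 12 were positive after carbon ions, with a median of 0.11, and Hk1 (-0.11) and Hk2 (-0.09) were negative. After photons 4 of 12 were then above 0, with a median of -0.10 and a range from -0.30 for Aldoa to 0.18 for Pgk1. Pgk1 (chrX:106187100-106203699, plus strand), which makes the first ATP of the pathway, measured 325, 534 and 602 CPM in the carbon-arm controls and 409, 676 and 1358 CPM after carbon ions. It measured 217, 314 and 593 CPM in the photon-arm controls and 345, 396 and 711 CPM after photons. All 8 photon-irradiated libraries were above the photon-control median, although the groups overlapped. The log2 fold changes of Pgk1 were 0.61 ± 0.21 (adjusted p = 0.558) and 0.44 ± 0.21 (adjusted p = 0.218), and 0.20 and 0.18 without the 5 libraries. Ldha, which turns pyruvate into lactate, measured 395, 523 and 577 CPM in the carbon-arm controls, 498, 590 and 942 CPM after carbon ions, 303, 491 and 588 CPM in the photon-arm controls and 385, 463 and 665 CPM after photons. Its irradiated median was higher than that of the controls in the carbon-ion arm and lower in the photon arm, with log2 fold changes of 0.38 ± 0.14 and 0.06 ± 0.14, and 0.13 and -0.10 without the 5 libraries. Aldoa, the aldolase that splits the hexose bisphosphate, measured 366, 480 and 694 CPM in the carbon-arm controls and 521, 621 and 1022 CPM after carbon ions, where all 8 libraries exceeded the control median. In the photon arm it measured 410, 569 and 644 CPM in the controls and 352, 458 and 753 CPM after photons, where 2 of 8 did. Its log2 fold changes were 0.47 ± 0.16 and -0.07 ± 0.16, a difference of 0.54 ± 0.23 that did not pass (adjusted p = 0.314), and without the 5 libraries the values were 0.21 and -0.30.

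Aldoa is also abundant in skeletal muscle, whose 12 markers summed to between 16.4 and 2013 CPM in the photon-arm controls (median 1047) and between 8.6 and 547 CPM in the photon-irradiated tumours (median 26.2). In the carbon-ion arm the sums ran from 11.6 to 3715 CPM in the controls and from 12.9 to 4637 CPM after irradiation. All 12 muscle markers had lower values after photons, with a median log2 fold change of -2.89, 12 at an unadjusted p under 0.05 and 0 past the threshold. With the muscle score as a term, Aldoa was at 0.48 after carbon ions and 0.06 after photons. The remaining enzymes are described by their log2 fold changes after carbon ions and after photons. The hexokinases Hk1 (0.12 and 0.19) and Hk2 (0.31 and 0.25), which trap glucose in the cell, and the isomerase Gpi1 (0.37 and 0.20) open the pathway. Pfkl (0.46 and 0.39) and Pfkp (0.79 and 0.33) encode forms of phosphofructokinase, the committing step, and Pfkp had the highest value of the enzymes after carbon ions (adjusted p = 0.46). With the 5 libraries left out, Pfkp was at 0.43 and -0.01, Pfkl at 0.05 and 0.15 and Gpi1 at 0.13 and 0.01. In the lower pathway, Tpi1 (0.42 and 0.04), Gapdh (0.43 and -0.05), Pgam1 (0.43 and 0.10) and Eno1 (0.30 and -0.00) were positive after carbon ions and near 0 after photons. Their differences between the beams, from 0.30 to 0.49, did not pass (adjusted p from 0.41 to 0.53). These 4 genes ranged, without the 5 libraries, from 0.03 to 0.14 after carbon ions and from -0.28 to -0.10 after photons. Near-identical pseudogenes of Pgam1 held between 1.05% and 1.69% of the counts of the gene and its copies, and Eno1b held between 0.612% and 1.299% of those of Eno1. The copies of Pgk1 held up to 2.84% in a library, with a median of 0.00696%. Aldoa, Tpi1, Gapdh and Pfkp each overlap 1 protein-coding gene on the other strand, and how strand was handled in counting is not given in the sources used here.

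The regulators of glycolytic flux had mixed signs. Pfkfb3 and Pfkfb4 make and break down the activator of phosphofructokinase, and Pdk1 restrains the entry of pyruvate into mitochondria. Pfkfb4 measured 8.49, 10.04 and 14.3 CPM in the carbon-arm controls, 8.40, 10.04 and 13.7 CPM after carbon ions, 9.87, 13.2 and 17.5 CPM in the photon-arm controls and 9.43, 10.1 and 15.7 CPM after photons. Only 1 of 8 photon-irradiated libraries was above the control median. Pfkfb4 was the single member with a negative value after carbon ions, at -0.01 ± 0.14, and it had -0.31 ± 0.14 after photons (adjusted p = 0.204). Pdk1 had 0.39 ± 0.23 and 0.51 ± 0.23, and Pfkfb3 had 0.11 ± 0.17 and 0.25 ± 0.17, none past the threshold. Leaving out the 5 libraries put Pdk1 at 0.00 and 0.16, Pfkfb3 at -0.10 and -0.07 and Pfkfb4 at -0.00 and -0.31.

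Of the secreted factors, Vegfa drives vessel growth and Adm encodes the vessel-dilating peptide adrenomedullin. Vegfa measured 99.4, 156 and 295 CPM in the carbon-arm controls and 136, 215 and 491 CPM after carbon ions. It measured 99.6, 148 and 288 CPM in the photon-arm controls and 97.97, 226 and 381 CPM after photons. In each arm 7 of 8 irradiated libraries exceeded the control median, with log2 fold changes of 0.55 ± 0.27 (adjusted p = 0.877) and 0.61 ± 0.27 (adjusted p = 0.186), and 0.16 and 0.33 without the 5 libraries. Adm was low and wide in its spread, with 1.43, 4.81 and 5.73 CPM in the carbon-arm controls, 2.05, 5.72 and 18.2 CPM after carbon ions, 0.974, 2.73 and 9.34 CPM in the photon-arm controls and 1.74, 3.19 and 27.3 CPM after photons. The medians differed by little, and the log2 fold changes were 0.94 ± 0.54 and 1.08 ± 0.54, and 0.33 and -0.25 without the 5 libraries, of which 4 are irradiated and 1 is a control. Angptl4, an inhibitor of lipoprotein lipase, had opposite signs, 0.52 ± 0.20 after carbon ions and -0.42 ± 0.20 after photons. That difference of 0.94 ± 0.28 had an unadjusted p of 0.00235 with an adjusted p of 0.145. Angptl4 was at 0.42 and -0.49 without the 5 libraries. The hormone gene Stc2 had 0.07 ± 0.18 and 0.53 ± 0.18 (adjusted p = 0.083 after photons), with 8 of 8 photon-irradiated libraries above the control median, and -0.02 and 0.46 without the 5 libraries.

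The collagen-modifying enzymes fell into a pair of patterns. P4ha1 and P4ha2, the prolyl hydroxylases of collagen, had positive values after carbon ions of 0.67 ± 0.18 and 0.70 ± 0.22, against 0.05 ± 0.18 and 0.16 ± 0.22 after photons. P4ha1 had the smallest p of all members after carbon ions (unadjusted 0.000951, adjusted 0.346). It measured 47.1, 69.2 and 87.2 CPM in the carbon-arm controls and 85.6, 99.5 and 188 CPM in the irradiated tumours. The groups overlapped only between 85.6 and 87.2 CPM, where control replicates 1 and 5 were above the lowest irradiated library. Its photon values were 63.6, 80.9 and 118 CPM in the controls and 60.02, 80.6 and 150 CPM after irradiation, which overlapped nearly in full. P4ha1 was at 0.37 after carbon ions and -0.25 after photons without the 5 libraries, and P4ha2 at 0.36 and -0.17. Plod2 and Lox, the lysyl hydroxylase and lysyl oxidase that prepare and form collagen crosslinks, had negative values after photons, -0.48 ± 0.20 and -0.47 ± 0.33, which were -0.69 and -0.93 without the 5 libraries. After carbon ions Plod2 was at 0.09 ± 0.20 and Lox at 0.37 ± 0.33, and at 0.06 and 0.34 without the 5. Plod2 (chr9:92542223-92608428, plus strand) measured 23.6, 31.3 and 46.5 CPM in the carbon-arm controls, 23.03, 34.3 and 60.5 CPM after carbon ions, 35.1, 54.3 and 67.0 CPM in the photon-arm controls and 17.4, 41.2 and 58.4 CPM after photons. Like Hif1a it was highest in the photon-arm controls, and it was lower in the carbon-arm controls by -0.63 ± 0.20 (adjusted p = 0.0419). The call on Plod2 held in 11 of 32 fits that left out a library, irradiated ones included, with adjusted p from 0.0251 to 0.109. It held in 6 of 11 other settings. With only the libraries whose titles carry the letter M, its adjusted p was 0.23. The letter D is on 4 carbon-arm controls and on 0 photon-arm controls, so letter and arm are partly confounded here.

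The fibroblast markers were higher in the photon-arm controls as well, where the sum over 8 genes had a median of 16554 CPM against 10921 CPM in the carbon-arm controls, 10430 CPM in the carbon-irradiated and 12067 CPM in the photon-irradiated tumours. All 8 had lower values in the carbon-ion than in the photon-arm controls, with a median log2 difference of -0.59. Of the 8, 2 were past the threshold, where 4.01% of all genes were called lower. All 8 were also lower after photons, with a median log2 fold change of -0.47 and 1 past it, where 430 of 20474 genes were called lower. In bulk tumours, fewer cells of a type and less RNA per cell cannot be told apart. The part of fibroblasts in the Plod2 and Lox values was not tested across groups.

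Bnip3 and Fam162a encode mitochondrial proteins, Bnip3 a receptor for the removal of mitochondria. Bnip3 measured 11.2, 53.3 and 86.2 CPM in the carbon-arm controls and 40.4, 85.4 and 262 CPM after carbon ions, and 14.9, 36.7 and 90.5 CPM in the photon-arm controls and 21.6, 57.3 and 166 CPM after photons. The irradiated medians were above the control medians in both arms, and 6 of 8 and 7 of 8 irradiated libraries exceeded the control median. The log2 fold changes were 1.09 ± 0.43 (adjusted p = 0.694) and 0.94 ± 0.43 (adjusted p = 0.192), the average was 1.02 ± 0.30 (adjusted p = 0.0992), and without the 5 libraries the values were 0.37 and 0.28. Fam162a (chr16:36043761-36071594, minus strand) measured 26.0, 36.9 and 54.95 CPM in the carbon-arm controls, 30.2, 53.9 and 96.6 CPM after carbon ions, 21.5, 30.04 and 47.3 CPM in the photon-arm controls and 23.6, 31.4 and 56.8 CPM after photons. Against its own controls it had 0.65 ± 0.21 after carbon ions and 0.24 ± 0.21 after photons, neither past the threshold, and 0.34 and -0.07 without the 5 libraries. Fam162a overlaps the protein-coding gene Wdr5b on the other strand.

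Vldlr (chr19:27216484-27254231, plus strand), a receptor for lipoproteins, was the member that passed in the average of both effects. It measured 8.57, 19.4 and 28.1 CPM in the carbon-arm controls and 22.4, 31.9 and 103 CPM after carbon ions. In the photon arm it measured 6.47, 20.9 and 31.7 CPM in the controls and 14.996, 27.4 and 54.7 CPM after photons. Every carbon-irradiated library was above the control median and 6 of 8 photon-irradiated libraries were, while both pairs of groups overlapped. The log2 fold changes were 1.13 ± 0.34 after carbon ions (adjusted p = 0.44) and 0.88 ± 0.34 after photons (adjusted p = 0.122), and their average was 1.004 ± 0.24 (adjusted p = 0.0407). The average passed in 15 of 32 fits that left out a library, with the highest adjusted p, 0.0844, without carbon-irradiated replicate 4. Without the 5 libraries it was 0.54 (adjusted p = 0.321), the highest of the 40 members under that setting. Plin2 (chr4:86648386-86670060, minus strand), which coats lipid droplets, measured 108, 133 and 166 CPM in the carbon-arm controls, 109, 175 and 245 CPM after carbon ions, 89.4, 132 and 160 CPM in the photon-arm controls and 94.5, 131 and 156 CPM after photons. The photon groups covered nearly the same range, and the carbon-irradiated median exceeded every control. Plin2 had 0.40 ± 0.14 after carbon ions and -0.06 ± 0.14 after photons, and Hilpda, an inhibitor of lipid droplet breakdown, had 0.53 ± 0.30 and 0.25 ± 0.30. Plin2 was at 0.19 and -0.11 and Hilpda at 0.03 and -0.22 without the 5 libraries.

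The 6 genes of transcription, chromatin and signalling were positive after both beams, with medians of 0.25 and 0.37 and 0 of 6 past the threshold in either. With the 5 libraries left out, 4 of 6 were positive after carbon ions and 5 of 6 after photons, with medians of 0.02 and 0.14. Ndrg1, a stress-response gene long used as a marker of hypoxia, measured 114, 190 and 295 CPM in the carbon-arm controls, 160, 248 and 733 CPM after carbon ions, 103, 152 and 360 CPM in the photon-arm controls and 152, 208 and 538 CPM after photons. Its irradiated medians were above those of the controls within overlapping ranges, with log2 fold changes of 0.76 ± 0.30 and 0.63 ± 0.30, and 0.17 and 0.14 without the 5 libraries. Ankrd37 was low, at 1.05, 2.23 and 7.57 CPM in the carbon-arm controls, 1.56, 3.54 and 6.19 CPM after carbon ions, 0.852, 1.67 and 3.64 CPM in the photon-arm controls and 1.44, 2.90 and 8.03 CPM after photons. In each arm 7 of 8 irradiated libraries exceeded the control median, and the log2 fold changes were 0.32 ± 0.38 and 0.94 ± 0.38 (adjusted p = 0.147 after photons), and -0.02 and 0.34 without the 5 libraries. Ankrd37 overlaps the protein-coding genes Ufsp2 and Lrp2bp. The histone demethylase gene Kdm3a had 0.18 ± 0.14 and 0.40 ± 0.14, and the mTOR inhibitor gene Ddit4 had 0.19 ± 0.15 and 0.35 ± 0.15. Mxi1, an antagonist of Myc, had 0.41 ± 0.19 and 0.35 ± 0.19, and the repressor gene Bhlhe40 had 0.16 ± 0.18 and 0.15 ± 0.18. With the 5 libraries left out, Bhlhe40 was negative after both beams (-0.11 and -0.10), Ddit4 was at 0.00 and 0.13, Kdm3a at 0.05 and 0.26 and Mxi1 at 0.11 and 0.11.

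**Figure D3:**
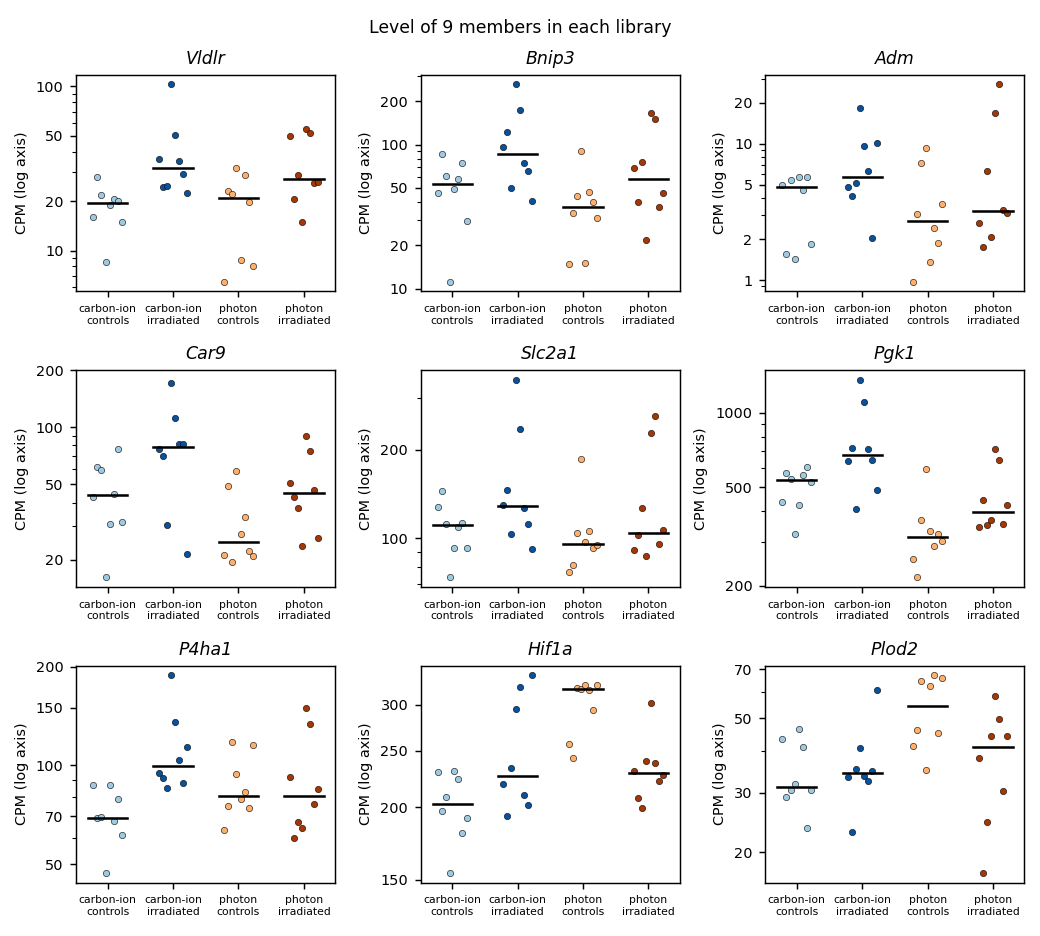
CPM (log axis) of 9 members in every library, with 1 point per library in order of replicate number and a bar at the group median. The high points of the irradiated groups (262 CPM in Bnip3, 103 CPM in Vldlr after carbon ions) stand far above their medians, and all 8 photon-arm controls of Hif1a lie above all 8 carbon-arm controls.

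The irradiated groups of the arms were also compared with each other. Here 3 members were higher after carbon ions than after photons, where 5.08% of all genes were called (3.55% higher), and 29 of 40 had a positive log2 difference with a median of 0.20. They were Fam162a at 0.76 ± 0.21 (adjusted p = 0.0363), Pgk1 at 0.74 ± 0.21 (adjusted p = 0.0386) and Plin2 at 0.49 ± 0.14 (adjusted p = 0.0353). Fam162a passed in 24, Pgk1 in 21 and Plin2 in 26 of the 32 fits that left out a library. Some of these fits left out a control library, which bears on this comparison only through the shared spread and scaling. None of the 3 passed without the 5 libraries, at 0.83 (adjusted p = 0.056), 0.68 (adjusted p = 0.0625) and 0.39 (adjusted p = 0.149), and only 3 of all genes were called under that setting. With the score of the muscle markers as a term, 0 of 40 members and 3 of all genes passed, although the differences themselves were 0.79 for Fam162a, 0.79 for Pgk1 and 0.50 for Plin2. Markers of macrophages and neutrophils, which are white blood cells, also differed between these groups. All 8 macrophage markers had positive differences, with a median of 0.60 and 4 past the threshold, and their sum ran from 889 to 1662 CPM after carbon ions and from 473 to 955 CPM after photons. All 6 tested neutrophil markers had positive differences, with a median of 0.90 and 3 past the threshold, and the sum over 7 listed genes ran from 81.5 to 299 CPM and from 52.9 to 154 CPM. Against the photon-arm controls all 8 and all 6 had lower values after photons, 2 and 3 of them past the threshold, where 430 of 20474 genes were called lower. The part of these cells in the members' differences was not tested. The controls of the arms also differed in many genes, so beam and arm cannot be told apart in this comparison. Pgk1 itself had a log2 difference of 0.57 ± 0.21 between the controls (adjusted p = 0.0852), Fam162a 0.35 ± 0.21 and Plin2 0.04 ± 0.14. Between the controls, 2 members passed, Hif1a and Plod2, both lower in the carbon-ion arm, where 4.01% of all genes were called lower and 9.14% in either direction, so the share of members was near that of all genes. The median of the members was 0.01. Epithelial markers were higher in the carbon-arm controls in 7 of 8 cases, with a median log2 difference of 0.28. Of the 8, 2 were past the threshold, where 5.13% of all genes were called higher. Their sums ran from 3173 to 5586 CPM against 3068 to 4635 CPM in the photon-arm controls, and their part in the members' values was not tested. Without the 5 libraries Hif1a and Pgk1 passed between the controls, Pgk1 at 0.65 (adjusted p = 0.0111), and Plod2 did not (adjusted p = 0.0722). Carbon-arm control replicate 4, left out there for its low members, was the lowest of its group in Pgk1 (325 CPM). The Pgk1 value is thus raised by construction. In the difference of the beams' effects 0 of 40 members passed by edgeR, where 0.0781% of all genes were called, with 6 at an unadjusted p under 0.05, all more positive for carbon ions (7.82% of all genes in that direction). This count was 2 without carbon-irradiated replicate 4, 3 without carbon-irradiated replicate 5 or photon-irradiated replicate 3, and 10 without photon-irradiated replicate 5. DESeq2 called 1 member, Hif1a, and 1.6% of the genes to which it gave an adjusted p.

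Lists of other genes of the pathway were counted in the same fits. Of 28 tested HIF targets outside the 40 members, 27 had a positive value after carbon ions with a median of 0.32, and 0 passed. After photons 19 of 28 were positive with a median of 0.11, and 2 rose, where 1.71% of all genes were called higher. These were Ccng2, a cyclin of cell cycle exit, at 0.44 ± 0.12 (adjusted p = 0.0368), and Rbpj, the DNA-binding partner of Notch, at 0.30 ± 0.07 (adjusted p = 0.0135). Ccng2 measured 57.1, 66.4 and 96.97 CPM in the photon-arm controls and 74.9, 92.6 and 125 CPM after photons, and 64.7, 69.9 and 100 CPM in the carbon-arm controls and 72.1, 98.2 and 139 CPM after carbon ions. Its average change over both beams was 0.41 ± 0.09 (adjusted p = 0.0165). Between the controls, the hormone gene Stc1 (-0.95 ± 0.25, adjusted p = 0.0167) and the carbonic anhydrase gene Car12 (-1.07 ± 0.31, adjusted p = 0.0244) were lower in the carbon-ion arm, which makes 2 of 28 against 4.01% of all genes. Between the irradiated groups, the mitochondrial protein gene Higd1a (0.61 ± 0.17, adjusted p = 0.037) and the cytokine gene Mif (0.57 ± 0.16, adjusted p = 0.036) were higher after carbon ions, 2 of 28 against 3.55% of all genes.

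Of 10 tested genes of the HIF machinery, 0 passed after either beam, and 2 were lower in the carbon-ion than in the photon-arm controls, where 4.01% of all genes were called lower. These were the alpha subunit Epas1 (-0.64 ± 0.20, adjusted p = 0.0392) and the shared partner Arnt (-0.21 ± 0.06, adjusted p = 0.0349), in the same direction as Hif1a. Epas1 measured 41.2, 65.1 and 95.7 CPM in the carbon-arm controls and 72.4, 97.9 and 175 CPM in the photon-arm controls. All 9 endothelial markers (Pecam1, Cdh5 and others) were also lower in the carbon-arm controls, with a median log2 difference of -0.46 and 2 past the threshold. Their sum ran from 187 to 360 CPM in the carbon-arm and from 278 to 536 CPM in the photon-arm controls. After photons 8 of these 9 had lower values, 2 of them past the threshold, where 430 of 20474 genes were called lower, with sums from 206 to 470 CPM. The part of endothelial cells in the values of Epas1, Arnt and Hif1a was not tested. The coactivator Crebbp was lower after carbon ions than after photons (-0.22 ± 0.07, adjusted p = 0.042), as were 1.54% of all genes. Of 18 tested genes of glycolysis that are not members, 0 passed in any of the 6 comparisons, with medians of 0.05 after carbon ions and -0.10 after photons. Of 13 genes of mitochondrial pyruvate use, 0 passed after either beam. The pyruvate carrier subunit Mpc2 was higher in the carbon-ion arm both among controls (0.58 ± 0.13, adjusted p = 0.00576) and among irradiated tumours (0.61 ± 0.13, adjusted p = 0.0168), and Pdha1 of the pyruvate dehydrogenase was higher among controls (0.48 ± 0.10, adjusted p = 0.00253), where 5.13% of all genes were called higher. Of 12 genes of the amino acid stress response driven by Atf4, 0 passed in any comparison.

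The members varied together from library to library. After each gene's group mean was subtracted from its log2 CPM, 719 of the 780 pairs of members had a positive correlation over the 32 libraries, with a median Pearson's r of 0.62, and among the 12 glycolytic enzymes all 66 pairs were positive with a median of 0.79. Slc2a1, chosen as a reference after its values were seen, had a positive r with 38 of the 39 other members. Of these, 33 passed at an adjusted p of 0.05 (permutation test within groups, 100000 permutations, adjusted over these and 80 relations with marker scores), the weakest at r = 0.43, which 7.0% of all genes reached. The median r was 0.74 over the members and -0.06 over the 20473 other genes tested, and an r of at least 0.7 was reached by 27 of 39 members and 0.625% of all genes. Egln1 was closest, with r = 0.95 and Spearman's rho = 0.87 (adjusted permutation p = 8.5e-05, from the smallest p that 100000 permutations can give, 1e-05). Its r was 0.92 without the 2 libraries farthest from the median of Slc2a1 and 0.81 without the 5 libraries. Ndrg1 (0.93), Hk2 (0.92) and Hilpda (0.91) followed. The 15 highest held 6 genes outside the list, Ero1a (0.91) of protein folding, Gys1 (0.89) and Gbe1 (0.88) of glycogen synthesis, the kinase gene Map2k1 (0.87) and the transcription factor genes Maff (0.86) and Mxd1 (0.86). Ero1a, Gys1 and Gbe1 are in the list of other HIF targets counted above.

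The relation was looked for within the title letters, D or M, whose meaning is not given in the labels. The letter D is on 4 controls and 3 irradiated libraries of the carbon-ion arm. The median r with Slc2a1 was 0.78 in the 25 libraries with M titles and 0.71 in the 7 with D titles, all of the carbon-ion arm. Without the 5 libraries it was 0.41, with 33 of 39 positive. Since these libraries were picked by the members' common deviation, leaving them out lowers the correlation between members by construction. The members whose r did not pass were Hif1a (r = 0.44, adjusted permutation p = 0.067), whose Spearman's rho of 0.43 did (adjusted permutation p = 0.0483), Angptl4 (0.35), Lox (0.10), Plod2 (0.10), Stc2 (0.05) and Pfkfb4 (-0.15). For Hif1a, r was 0.41 without the 2 farthest libraries and -0.10 without the 5. The points share library, scaling and the tissue each piece held. Within groups the members' log2 CPM had a median SD of 0.41, compared with 0.35 over all genes tested, and the widest were Adm (1.11), Bnip3 (0.93), Ankrd37 (0.77) and Car9 (0.75).

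Scores of marker genes correlated with some members. The mean of 6 proliferation markers (Mki67, Top2a and others) correlated negatively with 10 of 40 members at an adjusted permutation p of 0.05 and positively with 0. An r of -0.45 or lower, the weakest of the 10, was reached by 6.38% of 20468 other genes. By Spearman's rho, Pfkfb3 (-0.43, adjusted permutation p = 0.0425) and Ndrg1 (-0.52, adjusted permutation p = 0.0111) passed as well. The strongest was Kdm3a (r = -0.70, rho = -0.71, adjusted permutation p = 0.000366), at -0.73 without the 2 libraries farthest from the median of the score and -0.72 without the 5. Vldlr followed (r = -0.64, rho = -0.69, adjusted permutation p = 0.00105), at -0.69 and -0.71 under the same omissions. Vegfa (-0.57), Car9 (-0.56), Mxi1 (-0.54), Pfkl (-0.51), Egln3 (-0.50), Bnip3 (-0.46) and Pdk1 (-0.45) also passed. Stc2 passed at -0.58 but was at -0.31 without the 2 farthest libraries, on which its size rested, and at -0.65 without the 5. Within D titles, Kdm3a was at -0.15 and Vldlr at -0.84, over 7 libraries. All 6 proliferation markers had lower values after photons (median log2 fold change -0.58, 5 at an unadjusted p under 0.05, 0 past the threshold) and after carbon ions (median -0.17, 0 at an unadjusted p under 0.05). The mean of 8 fibroblast markers correlated with Lox (r = 0.73, rho = 0.67, adjusted permutation p = 0.000119) and Plod2 (r = 0.53, rho = 0.48, adjusted permutation p = 0.00535) and with no other member past the threshold. An r of 0.53 or more with this score was reached by 5.52% of 20466 other genes, a share close to that of the members. Other scores were related to these genes as well, over the same 32 libraries: Lox had r = 0.71 with the macrophage, 0.60 with the adipocyte and 0.55 with the endothelial markers, and Plod2 had r = -0.57 with the skin keratinocyte markers. For Lox, r was 0.69 without the 2 farthest libraries and 0.72 without the 5, and for Plod2 it was 0.44 and 0.49.

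**Figure D4:**
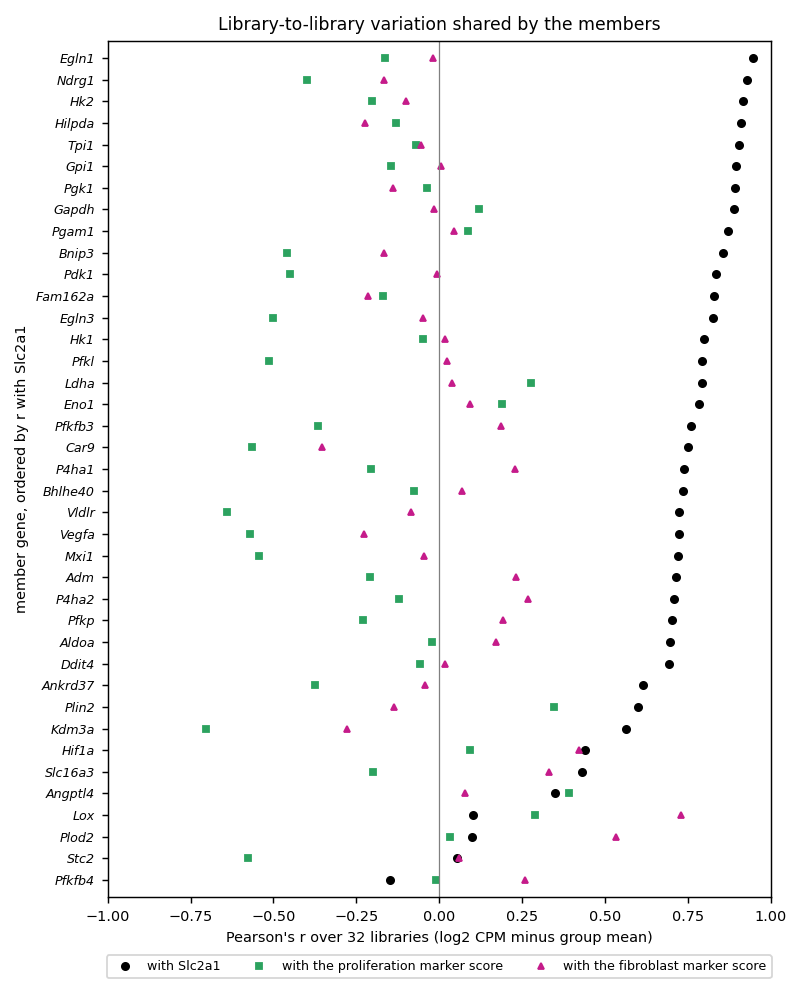
Pearson's r of each member (rows, ordered by r with Slc2a1) over 32 libraries after group means were subtracted, with Slc2a1 (black circles), the proliferation marker score (green squares) and the fibroblast marker score (magenta triangles). Most members lie above 0.7 with Slc2a1, Kdm3a and Vldlr lie lowest with proliferation (-0.70 and -0.64), and Lox and Plod2 lie highest with the fibroblast score (0.73 and 0.53).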

How the data were processed

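RNA of 32 KPC36 tumours was sequenced from stranded mRNA libraries, per the labels' protocols. In the deposited table the values are estimated counts for each gene, and the submitters' processing notes name FastQC 0.12.0, Trimmomatic 0.32, RSEM 1.3.3 and the build mm10. The handling of strand is not given in the sources used here. Of 853648 values above 0, 4 were whole within 0.000001. The tests had been planned for whole counts, so the deposited estimated counts were rounded, which moved library totals by at most 0.00403%. Of 55103 rows, 16677 were at 0 in every library, and 0 columns lacked a sample.

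In R 4.3.3, edgeR 4.0.16 kept 20474 genes (filterByExpr with the groups, minimum count 10), scaled libraries by TMM and fitted 1 quasi-likelihood model with a coefficient per group to all 32 libraries. P-values were adjusted by Benjamini-Hochberg over all genes of a contrast (threshold 0.05). Standard errors came from the F statistic, and 95% intervals are 1.96 standard errors on either side. CPM is relative to the TMM-scaled total, and log2 CPM used a prior count of 2. The contrasts were each beam against its controls, the average and the difference of these effects, the controls of both arms, and the irradiated groups of both arms. These contrasts share libraries. Marker scores were mean log2 CPM. Fits were tested on simulated counts. Alternatives used DESeq2 1.42.0, limma 3.58.1, other scaling and filters, the title letter or muscle score as a term, and libraries left out.

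The 40 members, their roles and the lists of pathway and marker genes were chosen with earlier results of these data known. Values of every group are printed for members past the threshold in any contrast (6), for 13 that are always given, of which 2 are among the 6, and for P4ha1, chosen after its values were seen. Of pathway lists, members past the threshold are named. Promoters are from RefSeq and gene positions from GENCODE M21 on GRCm38.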

Additional observations from a re-analysis of the deposited data

Results flagged for a closer look

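In 11 of 160 combinations of a member and a group, the highest or lowest library stood off from the other 7 on the log2 CPM scale by more than Dixon's 95% critical value for groups of this size, where chance alone gives about 1 in 20 groups. The levels below are in CPM, on which scale the gaps of high libraries are wider and the set would differ. Photon-arm control replicate 4 was the high library in 4 of them, with Slc2a1 at 186.6 CPM (next library 106 CPM), Hk1 at 195.3 CPM (next 157.6 CPM), Hk2 at 261.9 CPM (next 163.1 CPM) and Hilpda at 76.2 CPM (next 31.2 CPM). Carbon-arm control replicate 4 was the low library in 3, with Pfkl at 52.3 CPM (next 87.2 CPM), Pgam1 at 329.5 CPM (next 413.1 CPM) and Pdk1 at 27.5 CPM (next 49.6 CPM). The other 4 were Hif1a at 301.9 CPM in photon-irradiated replicate 5 (next 239.8 CPM), Pfkfb4 at 15.7 CPM in photon-irradiated replicate 3 (next 10.9 CPM), Stc2 at 35.02 CPM in photon-arm control replicate 2 (next 18.96 CPM) and Kdm3a at 156.6 CPM in carbon-arm control replicate 7 (next 114.8 CPM). The members share their libraries, so these are not 11 separate events. Photon-arm control replicate 4 also held the highest value of its group in 29 of 40 members.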

How the results depend on the processing

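The members called after carbon ions stayed at 0 of 40 under every alternative run. After photons the count was 2 by DESeq2, which called 7.41% of all genes against 3.81% by edgeR. It was 1, Hif1a, with only the 2 groups compared and without the 5 libraries. For the average effect it was 3 by DESeq2 (Pfkp, Pgk1 and Vldlr) and 0 by limma-voom, in M titles only, with the title letter or the muscle score as a term, and without the 2 carbon-arm or all 5 libraries. For the difference of effects it was 1 with upper-quartile scaling and by DESeq2, where 1.6% of the genes with an adjusted p were called. Between the controls it was 1 with no filter, in M titles only and with the title letter. Between the irradiated groups it was 5 by DESeq2 and in M titles only, and 0 with no filter, with the muscle score, with only the 2 groups compared and without the 2 or the 5 libraries. Leaving out each library in turn gave 0 to 3 members after photons, 0 to 4 for the average effect, 0 to 1 for the difference, 1 to 4 between the controls and 0 to 5 between the irradiated groups. The share of all genes called also changes with the setting and is not given here for each. These counts are therefore not a result about the members. The cause of these changes was not tested, apart from the libraries named. Single members against their values on all libraries gave 9933 settings within the spread or on the same side, 174 that moved further, 42 newly past the threshold, 91 no longer past it and 0 called values of opposite sign. No paired analysis was possible because replicate numbers only follow deposition order and so link no library to another. Depth did not limit most members, but Adm and Ankrd37 measured only a few CPM in many libraries.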
